A study of Saccharomyces cerevisiae with 24 samples.

Results

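Many open reading frames (ORFs) of the yeast Saccharomyces cerevisiae still carry only a systematic identifier, because no study has given them a gene name. Such unnamed protein-coding ORFs were examined during the shift from air to nitrogen, and those whose mRNA level differed between 0 and 240 min in every time course were described. Members were chosen by the measured values at 0 and 240 min. An ORF was kept when its count per 1000000 counted reads (CPM), with 1 CPM added, was at 240 min at least 2 times the value at 0 min in all 3 courses (up group), or at most 0.5 times in all 3 (down group). The larger CPM had to be at least 5 in each course, and YNL194C was left out. The rule found 68 members, 56 in the up group and 12 in the down group, among the 732 unnamed ORFs that the files count. These values are therefore given as a description with no test.

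Polyadenylated RNA was sequenced from yMH914, an S288C-derived strain of mating type MATa with a repaired gene for the heme-responsive activator HAP1. It carries ura3D0 and his3D200 along with leu2D0 and lys2-128d. All 24 libraries come from this strain, so the repaired HAP1 and the auxotrophic markers are shared by every group. Cultures in rich YPD medium at 30° were sampled in air (0 min) and after 5, 10 and 30 min and 60, 120, 180 and 240 min under 100% nitrogen, with 1 library from each of 3 courses at each time. Cells were diluted after the 0 min sample, so that each flask was at mid-log growth when sampled. Comparisons with 0 min therefore cannot tell the dilution apart from the loss of oxygen. The dilution and the time since it can also differ between the later times, at which no culture in air was sampled. No sterol or unsaturated fatty acid was added to the medium. The values are shares of all counted RNA of a culture, in which fewer cells with a transcript and less of it per cell cannot be told apart.

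Yeast needs molecular oxygen to make heme, sterols and unsaturated fatty acids, and to respire. When oxygen falls, the heme-dependent activator Hap1 and the Hap2/3/4/5 complex no longer support transcription of respiratory genes, the Rox1 repressor is lost, and the sterol-sensing activator Upc2 turns on genes of sterol uptake and synthesis. A sudden change of conditions also starts the environmental stress response, in which Msn2 and Msn4 act through the stress response element (STRE) and ribosome biogenesis genes are turned down for a time. Yap1 is an activator of genes for oxidative and chemical stress. An ORF without a name can be placed among these programmes only by its annotation, its promoter and the course of its level, which are given here.

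The libraries held 4980240 to 16346113 counted reads. The library at 30 min in course 3 stood apart. It had 9 features with 2 to 5 counts, against 29 to 257 in the other libraries, and 36 features at 0 for which both other courses at 30 min led to an expectation above 20 counts, against 0 to 22 in the other libraries. In this library 8 members had no read, namely YPR145C-A, YCR102C, YJL114W, YLR460C, YPR015C, YOL163W, YNR071C and YDL129W, and the values below that rest most on it are given with and without it. Course 3 also had few features with 2 to 5 counts at 5, 180 and 240 min (51, 29 and 32, against 105 to 257 in the remaining libraries). At 240 min it had 22 features at 0 where more than 20 counts were expected. No result is given without these libraries alone. Course 1 also differed as a whole. Its libraries had 667 to 952 features at 0, against 1050 to 1467 in the libraries of courses 2 and 3, and the cause was not tested. The deleted markers URA3, HIS3 and LEU2 had at most 2 counts in any library. Among the markers of the mating type, STE2 of a cells lay between 558 and 1004 CPM and of alpha cells MF(ALPHA)1 reached at most 0.703 CPM, MF(ALPHA)2 16.3 CPM and STE3 21.6 CPM.

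Of the 732 unnamed ORFs, 326 reached the level that the rule asks for, and 17.2% of these were in the up group and 3.68% in the down group. Among the 5274 genes with a name, 4888 reached this level, and 8.02% met the up rule and 4.13% the down rule. Over all 5214 protein-coding genes past the level the shares were 8.59% and 4.10%. In the up group the median ratio per ORF ran from 2.09 to 97.8 with a middle value of 3.89, and the CPM at 240 min (median of 3 courses) ran from 7.78 to 613. In the down group the median ratio ran from 0.148 to 0.399 with a middle value of 0.277, and the CPM at 0 min from 16.9 to 167. With CPM scaled by TMM factors in place of total counts, 39 of the 56 up members and all 12 down members still met the rule. The members nearest the limit were YPL277C, with ratios of 2.09, 4.84 and 2.01 in courses 1 to 3, and YHR033W, with 0.467, 0.363 and 0.366. Just outside lay YLR225C, with 3.09, 2.52 and 1.99, and YLR112W, with 0.418, 0.456 and 0.518.

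**Figure D1:**
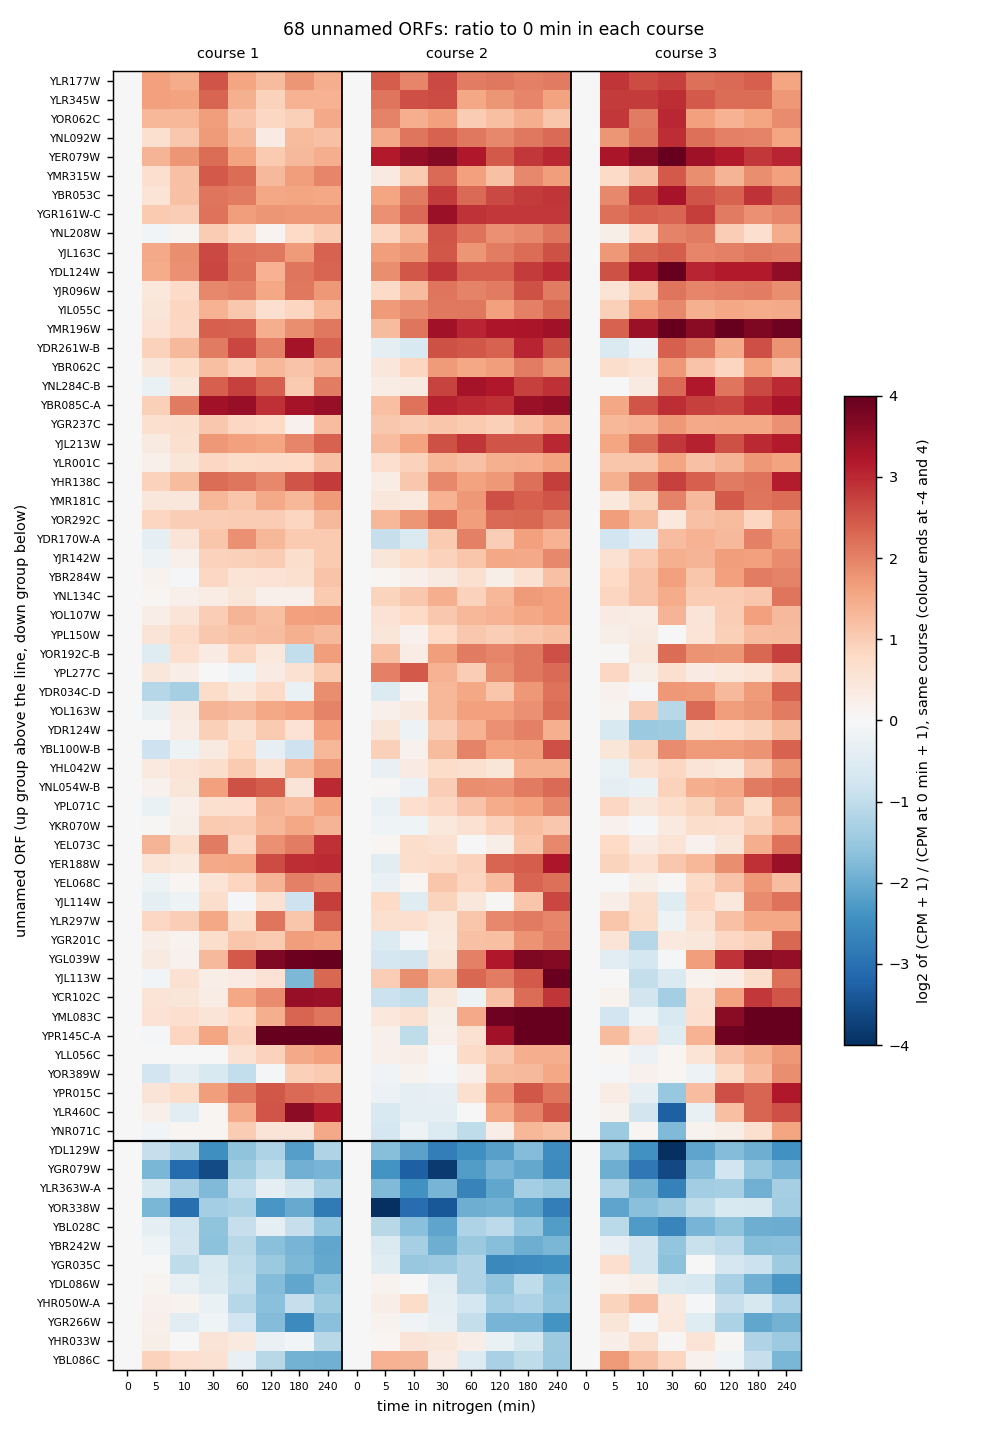
Log2 ratio of CPM + 1 to that at 0 min of the same course (colour) for the 68 unnamed ORFs (rows) at 8 times in each of 3 courses (columns), with the up group above the line and the down group below, each ordered by the share of the 240 min ratio reached at 30 min. Rows at the top of the up group are already dark at 5 to 30 min, rows at its foot turn dark only from 120 min, and the down group also holds early and late rows.

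The courses of the up members were not alike. At 30 min, 25 of the 56 had reached at least 50% of their 240 min ratio (log2 scale) in every course, 12 were under 50% in every course, and 19 had courses on both sides. In 8 members the 30 min ratio equalled or passed that at 240 min in every course, and in 18 the highest level of every course was at 240 min. Of the 12 down members, 5 had reached at least 50% of their final ratio at 30 min in every course and 5 had not in any course. Without the 30 min library of course 3, taken from courses 1 and 2 alone at that time, 29 up members were at 50% or more, 13 under 50% and 14 on both sides, the 8 were the same ORFs, and the down counts were the same. Among the members that moved was YOL163W, on both sides through its 0 in that library.

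Whether levels changed between times that the rule did not use was tested on the 18 libraries at 5 to 180 min with edgeR's quasi-likelihood test, and calls needed a change of at least 2-fold with an adjusted p under 0.05. All 68 members passed the filter on low counts. Between 5 and 180 min, 15 of the 56 up members rose, against 2.89% of the 6223 genes tested, and 5 of the 12 down members fell, against 2.68%. These 20 calls all had the direction of the group. The members were chosen for a rise or a fall in the same courses, though at other times. Calls in that direction, and an excess of them over all genes, are therefore partly built in. The share called among named genes that met the same rule is not given. The same limit applies to the other comparisons of members with all genes. The middle log2 change was 1.2 over the up members, -1.21 over the down members and -0.0016 over all genes. Libraries of the same course deviated together, though some pairs from different courses did so as strongly. With course as a block 30 up members rose (5.11% of all genes) and 6 down members fell (4.27%). Without the block the count depended on the courses. It was 36 members in all without course 1, 6 without course 2 and 11 without course 3, while with the block it was 37, 30 and 35. Without the 30 min library of course 3 it was 25 without the block and 38 with it.

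Between 5 and 30 min, 9 up members rose, against 2.19% of all genes, and 2 down members fell, against 4.05%. With the block these were 15 (4.39%) and 5 (5.64%). Between 30 and 180 min, 7 up members rose and 1 fell, against 2.92% and 2.25% of all genes, and in the down group 2 fell and 1 rose. With the block, 11 up members rose and 1 fell, and 3 down members fell and 2 rose (4.47% of all genes rose and 4.37% fell). Without course 2 and without course 3 the members called between 5 and 30 min were 1 and 4 without the block, but 20 and 20 with it, and those called between 30 and 180 min were 4 and 3 without the block, but 14 and 15 with it. Without the 30 min library of course 3 the members called were 10 in each of these comparisons without the block, and 20 and 17 with it, and of all genes 292 and 218 were called without the block, against 388 and 322 with that library. Calls made only with the block, besides those given below, were YNL054W-B, YDR034C-D, YDR170W-A and YMR181C higher (1.19, 1.93, 1.99 and 1.07, adjusted p = 0.0065, 0.00035, 0.00037 and 0.0018), YHR138C higher (1.34, 4.3e-05) and YGR035C lower (-1.33, 0.0052) between 5 and 30 min. Between 30 and 180 min they were YML083C, YCR102C and YGR201C higher (4.78, 3.40 and 1.09, adjusted p = 0.00057, 0.0016 and 0.016), YDL129W higher (1.54, 0.05 after rounding) and YDL086W lower (-1.06, 0.00035). YDL129W had no read at 30 min in course 3, and its call was lost when that library or any course was left out. With the block but without that library, YCR102C had 2.73 (adjusted p = 0.0023). The calls of YMR181C and YGR035C between 5 and 30 min were lost there. A change at any time from 5 to 180 min was called for 26 members, against 10.0% of all genes, and with the block for 45, against 19.3%.

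**Figure D2:**
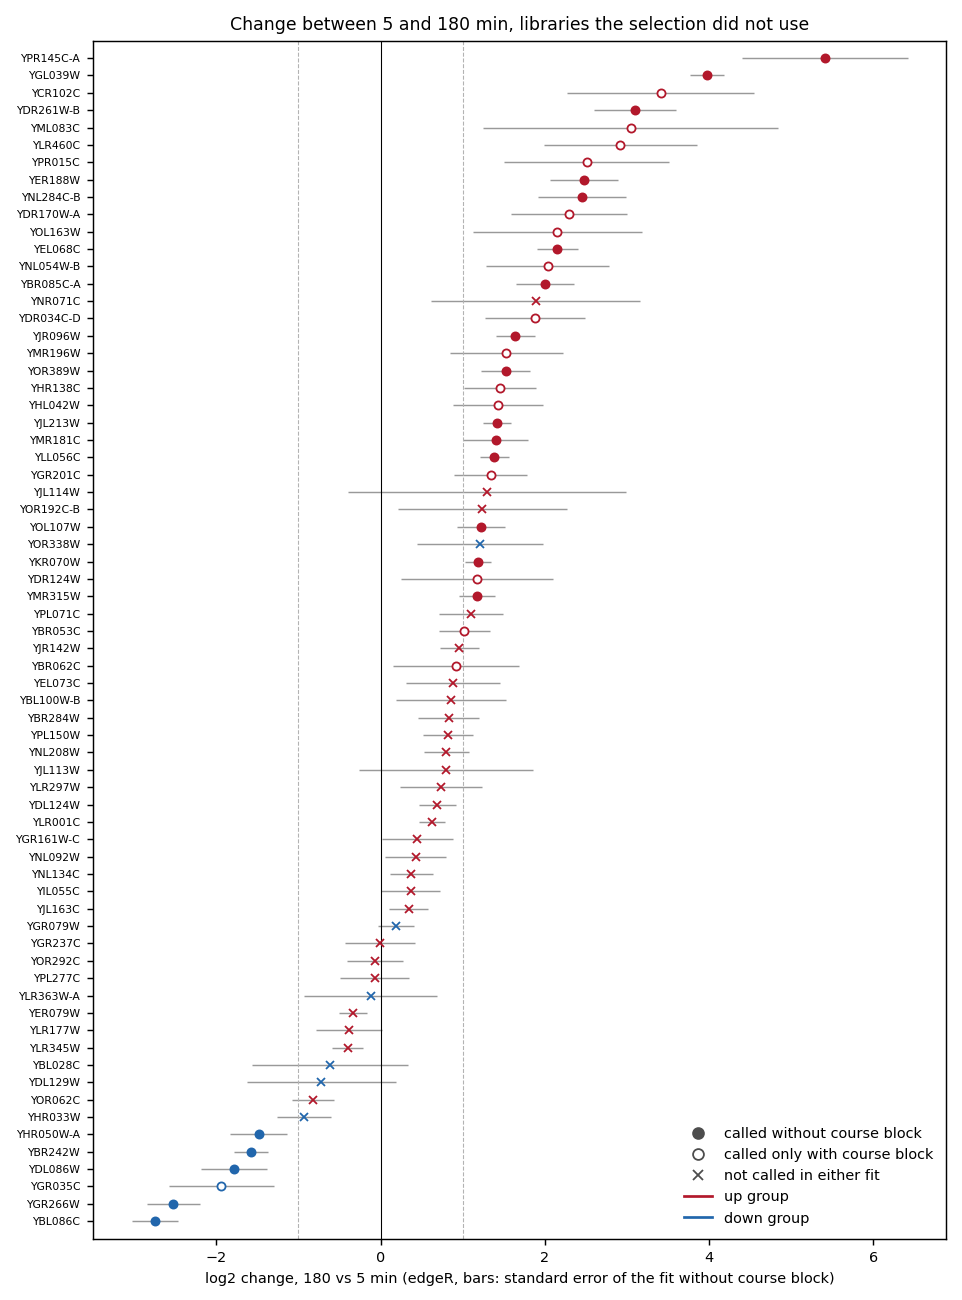
Log2 change between 5 and 180 min (x axis) with its standard error for the 68 unnamed ORFs (y axis), with filled points called without course as a block, open points called only with it, and crosses called in neither fit. YPR145C-A at 5.41 and YGL039W at 3.97 lead the up group, and YBL086C at -2.75 and YGR266W at -2.53 the down group.

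The largest ratio belonged to YPR145C-A, a short ORF of 78 codons on chromosome XVI (chrXVI:824690-824926, minus strand, R64) whose protein has no described role. Its level was 1.23, 1.55 and 0.392 CPM at 0 min in courses 1 to 3 (13, 12 and 5 counts), and 227, 128 and 135 CPM at 240 min. No library to 30 min passed 5.63 CPM. At 60 min the 3 libraries were at 3.23, 2.93 and 2.63 CPM, at 120 min at 52.0, 25.1 and 19.6 CPM, and at 180 min at 116, 77.4 and 55.7 CPM, so from 120 min all libraries lay above all earlier libraries. The rise between 5 and 180 min was 5.41 on the log2 scale (standard error 1.01, adjusted p = 0.0026) and between 30 and 180 min 5.17 (0.99, adjusted p = 0.0041). Without the 30 min library of course 3, where it had no read, the latter was 4.60 (adjusted p = 0.0038). Without course 2 the adjusted p was 0.17 between 5 and 180 min and 0.18 between 30 and 180 min, and without course 3 the latter was 0.074. With course as a block the adjusted p was 7.8e-07 over all courses. The neighbouring gene ASN1, an asparagine synthetase gene that ends beyond its 3′ end on the other strand, lay between 812 and 2299 CPM in all libraries, and the library kit is not stated to keep the strand.

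The core letters TCGTATA of the sterol response element that Upc2 binds, read on both strands from 250 bases before to 50 bases after the start codon, were in 4.14% of 5987 such windows of the genome and in 3 of the 56 up members, among them YMR196W and YLR297W. A match describes the letters only.

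YML083C is annotated as a target of Upc2 through a sterol response element. Its CPM at 0 min was 7.69, 0 and 0.705 in courses 1 to 3, and at 240 min 37.3, 53.2 and 61.7. Course 1 thus started higher and had a ratio of 4.40, where courses 2 and 3 had 54.2 and 36.8. At 60 min the libraries were at 14.2, 1.83 and 1.72 CPM and at 180 min at 42.6, 24.4 and 30.7 CPM. Because of this course difference the log2 change between 5 and 180 min, 3.05 with a standard error of 1.79, was not called (adjusted p = 0.39), and with course as a block it was 4.63 (adjusted p = 0.00077). The letters TCGTATA were not in its window.

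YGL039W encodes a carbonyl reductase that uses NADPH or NADH, and it had the highest level of all members at 240 min. It lay at 35.5, 47.0 and 50.5 CPM at 0 min, at 88.6, 65.6 and 48.6 CPM at 30 min, at 198, 194 and 162 CPM at 60 min and at 645, 613 and 594 CPM at 240 min. The courses differed little, and from 60 min every library lay above every earlier one. The rise between 5 and 180 min was 3.97 on the log2 scale with a standard error of 0.21 (adjusted p = 2.6e-08), and most of it, 3.24 (0.20, adjusted p = 2.3e-07), came after 30 min. The named genes whose course over the 24 libraries was most like it, by Pearson's r of log2(CPM + 1) centred in each course, were HES1, an oxysterol-binding protein gene (r = 0.99), ALE1, a lysophospholipid acyltransferase gene (r = 0.99), and CSR1, a phosphatidylinositol transfer protein gene (r = 0.99). These r values describe points that share libraries and depth, and those given here and below are the highest of 5126 named genes. The 24 libraries include those at 0 and 240 min that chose the members. A high r with some named gene that rises or falls is therefore partly built in.

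**Figure D3:**
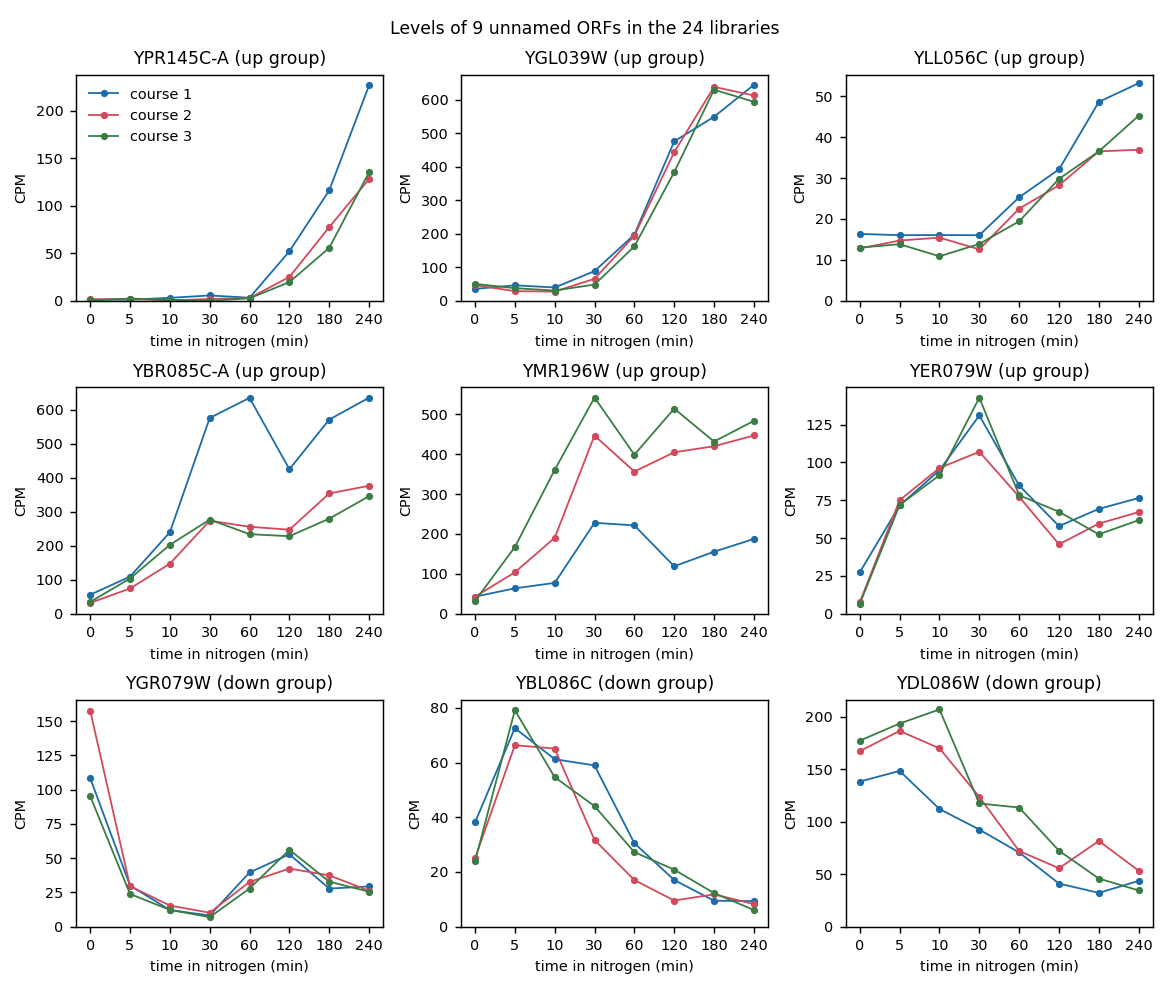
CPM (y axis) against time in nitrogen (x axis) in each of 3 courses (lines) for 9 unnamed ORFs. YPR145C-A, YGL039W and YLL056C stay low to 30 min and climb to 240 min, YBR085C-A and YMR196W reach most of their final level by 30 min, YER079W peaks at 30 min, YGR079W is lowest at 30 min, and YBL086C and YDL086W are highest at 5 or 10 min.

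Among the other ORFs of the up group, YER188W, YEL068C and YOR389W rose between 30 and 180 min, while YKR070W (0.67, adjusted p = 0.015, under 2-fold in both fits) and YPR015C (2.36, adjusted p = 0.18, with the block 2.61 and 0.0052) were not called there without the block. With the block but without the 30 min library of course 3, YPR015C had 1.96 (adjusted p = 0.0056). YER188W, an ORF that lies 8115 bases from the end of chromosome V with no described protein role, was at 3.70, 3.49 and 3.92 CPM at 0 min and at 36.4, 41.1 and 52.4 CPM at 240 min, and rose by 2.48 on the log2 scale between 5 and 180 min (standard error 0.41, adjusted p = 0.0011). YEL068C, whose tagged product was seen at the endoplasmic reticulum, was at 52.0, 32.0 and 39.5 CPM at 0 min and at 213, 165 and 134 CPM at 180 min. Its rise between 5 and 180 min was 2.15 (0.25, adjusted p = 7.1e-05). The named genes most like YEL068C were FHN1, UPC2 and EMC10 (r = 0.95, 0.95 and 0.95). YOR389W, an ORF annotated as regulated by copper, lay between 7.10 and 19.0 CPM in every library to 30 min, and at 40.3, 25.2 and 43.6 CPM at 240 min. It rose by 1.48 between 30 and 180 min (0.30, adjusted p = 0.0052). Of its 50-base windows 43.0% occur elsewhere in the genome, so part of its reads may not have been placed, though longer reads can still be unique there. TIR4 and TIR3, cell wall mannoprotein genes of anaerobic growth, and YSR3, a sphinganine kinase gene, were most like it (r = 0.945, 0.94 and 0.93). YKR070W, whose protein was detected in mitochondria, rose by 1.19 between 5 and 180 min (0.16, adjusted p = 0.00018). HEM13, the oxygen-dependent heme synthesis gene, ALE1 and ROX3 were most like it (r = 0.97, 0.96 and 0.96). YPR015C, a putative zinc finger transcription factor, was at 1.90, 3.23 and 1.88 CPM at 0 min and at 12.1, 17.8 and 25.5 CPM at 240 min, and its change between 5 and 180 min was 2.51 (1.00, adjusted p = 0.16, with the block 2.53 and 0.0061, and without the 30 min library of course 3, where it had no read, 2.51 and 0.006). Without course 2 the calls of YER188W and YKR070W between 5 and 180 min and those of YOR389W and YLL056C between 30 and 180 min were lost (adjusted p of 0.056, 0.084, 0.14 and 0.051), and YOR389W was also not called without course 3 (0.16). Between 30 and 180 min the call of YER188W was lost without course 2 or 3 (0.12 and 0.22), and that of YEL068C without course 3 (0.094). With the block all of these calls were made. The likeness of YEL068C, YOR389W and YKR070W to named genes was looked at after the values were seen.

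Among the up members, 8 are annotated as reductases or oxidoreductases of aldehydes, ketones or quinones, enzymes that pass electrons from NADH or NADPH to carbonyl groups. They are YGL039W, YDL124W, YCR102C, YLR460C, YJR096W, YMR315W, YLL056C and YNL134C. They did not share a course. YGL039W, YCR102C, YLR460C and YLL056C were under 50% of their final ratio at 30 min in every course, YDL124W, YJR096W and YMR315W were over 50% in every course, and YNL134C had courses on both sides. Between 5 and 180 min 4 of the 8 rose, namely YGL039W, YJR096W, YMR315W and YLL056C, against 2.89% of all genes, and with the block also YCR102C and YLR460C, 6 in all, against 5.11%. Without the block, the call of YJR096W was lost without course 3, that of YMR315W without course 2 or 3 and that of YLL056C without course 2. The 8 were grouped by annotation among members chosen for their levels, so these counts have no test.

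YLL056C, an NADH-dependent aldehyde reductase, showed the late course at a low level. It lay between 10.9 and 16.3 CPM in all libraries to 30 min and at 53.2, 36.9 and 45.2 CPM at 240 min, with no overlap, and rose by 1.56 between 30 and 180 min (standard error 0.18, adjusted p = 0.0001). YCR102C and YLR460C, putative quinone oxidoreductases, lie 11153 and 17290 bases from the ends of chromosomes III and XII, with 17.4% and 18% of their 50-base windows found elsewhere in the genome. YLR460C was at 8.45, 7.10 and 8.62 CPM at 0 min, at 111, 30.7 and 47.5 CPM at 180 min and at 85.8, 44.5 and 56.2 CPM at 240 min. It rose by 3.83 between 30 and 180 min (0.97, adjusted p = 0.023). Without the 30 min library of course 3, where it had no read, this was 3.25 (adjusted p = 0.013), and it was not called without course 2 (adjusted p = 0.26) or course 3 (0.11). Between 5 and 180 min its change was 2.92 (adjusted p = 0.069), called with the block (2.72, 0.00058). YCR102C was at 1.80, 2.07 and 1.57 CPM at 0 min and at 30.3, 13.6 and 17.3 CPM at 180 min. Its change between 5 and 180 min was 3.41 (1.14, adjusted p = 0.084), with the block 3.38 (adjusted p = 0.0014), and without the 30 min library of course 3, where it had no read, 3.41 (adjusted p = 0.012).

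The early reductases looked different. YDL124W, an aldo-keto reductase of alpha-keto amides and esters, was at 97.6, 62.3 and 43.2 CPM at 0 min, at 273, 229 and 259 CPM at 5 min and at 627, 455 and 697 CPM at 30 min, and then lay between 260.2 and 518 CPM. It rose by 1.12 between 5 and 30 min (0.23, adjusted p = 0.0047), which was 0.93 (adjusted p = 0.028) and under 2-fold without the 30 min library of course 3. The named genes most like YDL124W were DCS1, YNK1 and HXK1 (r = 0.98, 0.97 and 0.97). YJR096W, an aldo-keto reductase of xylose and arabinose, was at 42.3, 25.6 and 28.8 CPM at 5 min and at 121, 67.6 and 89.2 CPM at 30 min, and rose by 1.41 (0.23, adjusted p = 0.0011). YMR315W, an NADP(H) oxidoreductase annotated as regulated by Stb5 under NADPH depletion, was highest at 30 min in every course, at 216, 229.7 and 254 CPM, from 61.6, 60.8 and 78.2 CPM at 5 min, and rose by 1.71 (0.22, adjusted p = 0.00023). YNL134C, an aldehyde reductase that acts on furfural, was at 54.2, 32.5 and 35.2 CPM at 0 min and at 112, 103 and 159 CPM at 240 min, and its change between 5 and 180 min was 0.38 (0.26, adjusted p = 0.50).

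The letters TTACTAA, a site of Yap1, were in the promoter windows of 6 of these 8 ORFs and of 11 of the 56 up members, against 7.45% of the 5987 windows. The sites are shown with 11 bases on each side, oriented so that the motif reads TTACTAA (capitals), because they are what most of the reductases share and because those of YCR102C and YLR460C are nearly the same.
YDL124W, chrIV:240054-240082, plus strand: ccacactccccTTACTAAtccacacctag
YCR102C, chrIII:305641-305669, minus strand: gatagacaataTTACTAAgtgttcctcaa
YLR460C, chrXII:1061037-1061065, minus strand: gatagacgataTTACTAAgtgttcctcaa
YJR096W, chrX:611126-611154, minus strand: tgctaagttaaTTACTAAagtaagatcag
YLL056C, chrXII:28467-28495, minus strand: tgaagatatgaTTACTAAcacaaggatat
YNL134C, chrXIV:373752-373780, plus strand: aacatctgtccTTACTAAtcgatgccaat
The site was in early members (YDL124W and YJR096W) and in late members (YCR102C, YLR460C and YLL056C) alike. In the down group it was in 3 of 12 windows.

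A further set had at least 50% of its 240 min ratio at 30 min in every course. YBR085C-A, an 85-codon ORF whose tagged product lies in the cytoplasm and nucleus, was at 55.8, 31.6 and 34.6 CPM at 0 min, at 109, 74.2 and 103 CPM at 5 min, at 576, 274 and 277 CPM at 30 min and at 636, 377 and 346 CPM at 240 min. All libraries from 30 min lay above all those at 0 and 5 min, and course 1 was the highest at each time. It rose by 1.83 between 5 and 30 min (standard error 0.35, adjusted p = 0.0034), and its change between 30 and 180 min was 0.17 (0.34, adjusted p = 0.90). The polyubiquitin gene UBI4 was most like it (r = 0.975), followed by TFS1, a carboxypeptidase Y inhibitor gene (r = 0.97), and RTS3 (r = 0.96). YMR196W, a large cytoplasmic protein of 1088 residues, was at 42.5, 42.5 and 31.8 CPM at 0 min and at 228, 447 and 542 CPM at 30 min. Its change between 5 and 30 min was 1.78 (0.69, adjusted p = 0.15), and with the block 1.78 (adjusted p = 1.6e-06). Between 5 and 180 min it was 1.53 (adjusted p = 0.22), and with the block 1.5 (1.2e-05). Its course 1 was at 119 CPM at 120 min, below the 30 min level. Course 1 was the lowest at each time from 5 min. GPM2, a phosphoglycerate mutase homologue gene, TFS1 and COX5B, the hypoxic form of a cytochrome oxidase subunit, were most like it (r = 0.98, 0.98 and 0.97).

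YJL213W, annotated as a possible ribosome interactor, was at 30.4, 13.4 and 9.56 CPM at 0 min, at 104, 82.9 and 74.5 CPM at 30 min and at 159, 115 and 94.8 CPM at 240 min, and rose by 1.24 between 5 and 30 min (0.17, adjusted p = 0.00026). YBR053C, a regucalcin-like protein, was at 62.7, 36.0 and 37.4 CPM at 0 min and at 278, 259 and 380.5 CPM at 30 min. It rose by 1.31 between 5 and 30 min (0.31, adjusted p = 0.014), and without the 30 min library of course 3 by 1.06 with an adjusted p of 0.079. At 120 min it was at 185, 232 and 197 CPM, and its change between 5 and 180 min, 1.02 (adjusted p = 0.057), was called with the block (1.03, 0.00026). FRT2, NNR1 and MRX18 were most like YBR053C (r = 0.97, 0.97 and 0.97). YNL208W, which may also interact with ribosomes, was at 243, 66.6 and 104 CPM at 0 min and at 489, 387 and 413 CPM at 30 min, and rose by 1.38 between 5 and 30 min (0.27, adjusted p = 0.0044). At 120 min it was lower in every course, at 262, 241 and 209 CPM. PST2, SPS19 and GRX1 were most like YNL208W (r = 0.94, 0.92 and 0.92). YHR138C, similar to the proteinase B inhibitor Pbi2, was at 37.5, 13.2 and 22.4 CPM at 5 min and at 117, 52.1 and 38.4 CPM at 180 min, a change of 1.45 (0.44, adjusted p = 0.054) that was called with the block (1.42, adjusted p = 2.7e-05). The calls between 5 and 30 min of YBR085C-A, YDL124W, YBR053C, YNL208W and YJR096W were lost without course 2 and without course 3, and those of YJL213W and YMR315W without course 2 alone. Each was called with the block.

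In 8 up members the ratio at 30 min was at or above that at 240 min in every course. YER079W, an ORF of 210 codons with no described role, was at 27.4, 7.49 and 6.58 CPM at 0 min, at 71.6, 75.0 and 71.9 CPM after 5 min and at 131, 107 and 143 CPM at 30 min. It was then at 57.9, 45.9 and 67.3 CPM at 120 min and lay at 76.5, 67.2 and 61.8 CPM at 240 min. The 5 min libraries of all courses were thus at the final level already. Between 30 and 180 min the log2 change was -1.03 (standard error 0.17, adjusted p = 0.0013), the only call of an up member in the lower direction, and it was under 2-fold without the 30 min library of course 3 (-0.88, adjusted p = 0.0077). It was also not called without course 2 (adjusted p = 0.11) or course 3 (0.12), and without course 3 it was under 2-fold with the block as well (-0.84). TPS1, the trehalose-phosphate synthase gene, CST6 and the glucokinase gene GLK1 were most like it (r = 0.98, 0.97 and 0.97), a comparison not planned for this ORF.

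YLR345W, which resembles 6-phosphofructo-2-kinase, an enzyme that makes an activator of glycolysis, was at 21.5, 12.0 and 9.95 CPM at 0 min, at 68.4, 56 and 75.2 CPM at 5 min and at 112, 77.7 and 83.8 CPM at 30 min. At 240 min it was at 58.4, 38.9 and 35.6 CPM. YLR177W, a phosphoprotein of 628 residues, was at 22.2, 21.3 and 21.9 CPM at 0 min and at 71.1, 118 and 165 CPM at 5 min, and lay at 62.8, 93.9 and 67.4 CPM at 240 min. Neither was called between 5 and 30 min or between 5 and 180 min, since the step from 0 to 5 min falls outside the libraries tested. YOR062C, a relative of the phosphatase subunit Reg1, was at 18.6, 13.7 and 10.0 CPM at 0 min and at 48.2, 56.8 and 78.1 CPM at 5 min. YNL092W, a methyltransferase that uses S-adenosylmethionine, and the 92-codon YGR161W-C reached at most 32.9 and 60.2 CPM in any library and had no call. For YLR345W the genes most like it were TSL1 and TPS2, both of the trehalose synthase complex, and AIM17 (r = 0.97, 0.96 and 0.96). These were looked at after the values were seen.

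All 8 of these ORFs had AGGGG, the core of the STRE, in their promoter window on either strand. In the up group as a whole it was in 25 of 56 windows, in the 25 members at 50% or more of their ratio at 30 min in 16, in the 12 members under 50% in 2 (18 of 29 and 2 of 13 without the 30 min library of course 3), and in the down group in 2 of 12. Of the 5987 windows of the genome 21.6% held it. The classes were set by the levels, so these counts have no test. The sites of the 8 ORFs are shown with 11 bases on each side and in the direction that reads AGGGG (capitals).
YER079W, chrV:318669-318695, minus strand: gacaagcggcaAGGGGgaaggatgaga
YGR161W-C, chrVII:810003-810029, plus strand: acgatcttggtAGGGGcgggctgtgat
YJR096W, chrX:611053-611079, plus strand: gtgtcgatatgAGGGGaggtgtctctt
YMR315W, chrXIII:902618-902644, minus strand: gaattttcaacAGGGGataactccgtt
YLR345W, chrXII:820345-820371, plus strand: aaccggggttaAGGGGgcgtgagaatg
YLR345W, chrXII:820457-820483, plus strand: gatctttgcatAGGGGcatagtttaaa
YNL092W, chrXIV:450696-450722, plus strand: acactttttttAGGGGcgggaattttc
YOR062C, chrXV:443765-443791, minus strand: gtttctttttaAGGGGgatagaggcat
YLR177W had 3 sites at positions -178 to -134, the most of any member, and its whole upstream stretch is shown with them in capitals, along with GAACAAT, the Rox1 motif ATTGTTC on the other strand.
YLR177W promoter, chrXII:510804-511053, plus strand: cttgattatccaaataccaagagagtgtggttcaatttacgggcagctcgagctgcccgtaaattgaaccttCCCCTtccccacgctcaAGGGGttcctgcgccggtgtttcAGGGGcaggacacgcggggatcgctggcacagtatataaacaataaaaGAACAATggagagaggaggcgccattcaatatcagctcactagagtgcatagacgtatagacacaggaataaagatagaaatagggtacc

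Other motifs were counted in the same windows. ATTGTTC of Rox1 was in 5 of 56 up windows and in no down window, against 7.67% of all windows, CCAAT of the Hap2/3/4/5 complex was in 23 of 56 and 4 of 12, against 43.3%, and the Hap1 motif was in none, against 0.134%. The low-oxygen response element ACTCAACAA, through which Mga2 acts, was in 1 up window, that of YER188W, against 0.167%. TATAAA was in 35 of 56 up and 9 of 12 down windows, against 45.2%. Matches of different motifs can overlap, as those of AGGGG (on the other strand) and TTACTAA do by 1 base in YDL124W.

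Retrotransposons supplied 9 of the 56 up members. Ty elements are yeast retrotransposons that are copied through RNA, and their gag ORF encodes the shell of the virus-like particle and gag-pol the polyprotein with protease, integrase and reverse transcriptase. Of 91 Ty ORFs among the unnamed ORFs, 50 had no read in any library, 19 passed the level of the rule, 9 of these were in the up group and none in the down group. Alignments to several places do not enter the counts, and 58.8% to 97.2% of the 50-base windows of these 9 ORFs occur elsewhere in the genome (median 86.8%), and each value rests on the stretches that differ between copies. Of the 47 other up members 42 had no repeated window, and none of the 12 down members had any. In 6 of the 9, the gag-pol ORF also overlaps the gag ORF of the same element on the same strand.

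The summed CPM of the 9 Ty ORFs was 52.0, 72.1 and 71.6 at 0 min in courses 1 to 3, 71.2, 70.8 and 72.1 at 10 min, 142, 252 and 249 at 30 min and 239, 441 and 382 at 240 min. No library to 10 min reached the lowest at 30 min. Course 1 dropped to 122 at 180 min, where courses 2 and 3 were at 384 and 348. YDR261W-B, a gag-pol ORF on chromosome IV, was at 11.4, 9.36 and 9.05 CPM at 5 min and at 64.7, 109 and 88.6 CPM at 180 min, and rose by 3.10 on the log2 scale (standard error 0.50, adjusted p = 0.00089). YNL284C-B, on chromosome XIV, was at 3.89, 7.45 and 6.24 CPM at 5 min and at 29.7, 44.6 and 33.5 CPM at 30 min, and rose by 2.52 (0.54, adjusted p = 0.0069). These 2 of the 9 ORFs were called between 5 and 180 min without the block, against 2.89% of all genes, and 5 with it, against 5.11%. The 3 added were YNL054W-B (1.88, adjusted p = 0.00012), YDR034C-D (1.80, 0.00078) and YDR170W-A (2.58, 2.7e-05), and YOR192C-B and YBL100W-B had 1.24 and 0.86 (adjusted p = 0.60 and 0.57). The calls of YDR261W-B and YNL284C-B were lost without course 2 and without course 3. YJL114W and YJL113W, the gag and gag-pol ORFs of a neighbouring pair on chromosome X, stayed at most at 8.10 CPM to 180 min. At 240 min they were at 11, 7.78 and 5.21 CPM and at 15.9, 24.6 and 23.1 CPM.

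**Figure D4:**
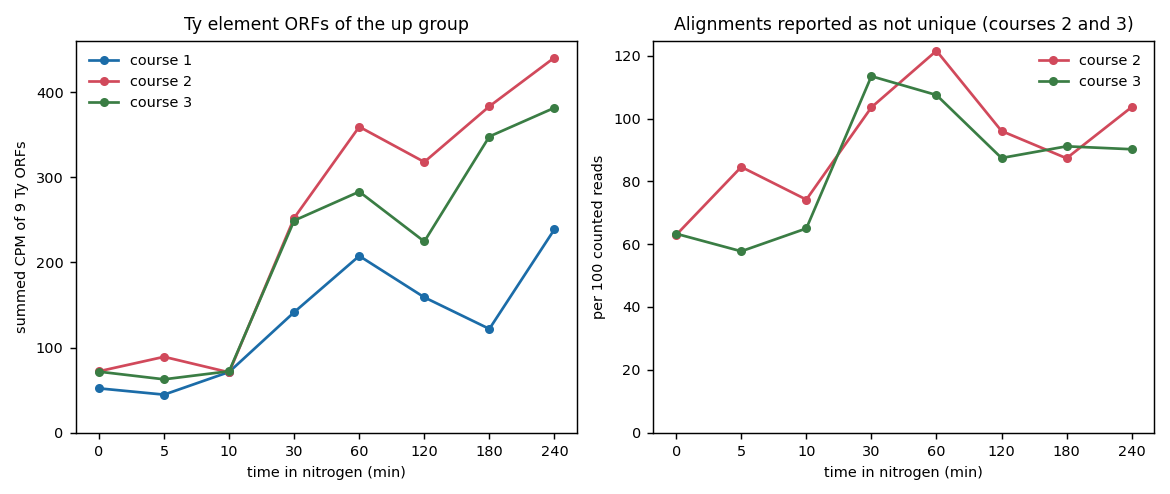
Left, summed CPM of the 9 Ty ORFs of the up group against time in nitrogen in 3 courses. Right, alignments reported as not unique per 100 counted reads in courses 2 and 3, at 63.0 and 63.3 at 0 min and 104 and 90.3 at 240 min, highest at 60 min in course 2 (122) and at 30 min in course 3 (114).

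The remaining up members were spread over many roles. YMR181C, which shares a transcript with the repressor gene RGM1, rose by 1.40 between 5 and 180 min (0.40, adjusted p = 0.038, and 0.091 with scaling by total counts), and YOL107W, whose tagged product was seen at the early Golgi, by 1.22 (0.29, adjusted p = 0.014). Both calls were lost without course 2 and without course 3 and were made with the block. YJR142W, a Nudix hydrolase that acts on damaged thiamin diphosphates, lay at 38.9, 33.2 and 28.6 CPM at 0 min and at 81.1, 128 and 109.7 CPM at 240 min, and its change between 5 and 180 min was 0.96 (0.24, adjusted p = 0.020), under 2-fold. YPL150W, a protein kinase that binds phosphoinositides, was at 44.2, 31.5 and 34.4 CPM at 0 min and at 111, 73.8 and 83.7 CPM at 240 min, and was not called (0.82, adjusted p = 0.12). YBR284W resembles AMP deaminases but lacks catalytic residues, YNR071C is a putative aldose epimerase and YHL042W a DUP380 protein of the endoplasmic reticulum, and none of them was called without the block, while YHL042W was with it between 5 and 180 min (1.52, adjusted p = 0.0092). YBR062C, which interacts with the signalling mucin Msb2, was higher in course 1 at every time (25.8 to 67.8 CPM) than in courses 2 and 3 (4.78 to 22.9 CPM), and was called between 5 and 180 min with the block alone (1.035, adjusted p = 0.002). YGR201C, of no described role, was at 10.3, 6.46 and 8.38 CPM at 0 min and at 33.7, 29.1 and 44.8 CPM at 240 min, and YOL163W, a remnant of a transporter gene, at 2.66, 1.68 and 1.17 CPM and at 13.4, 11.6 and 8.13 CPM. Both were called between 5 and 180 min with the block (1.28 and 2.16, adjusted p = 0.0067 and 0.033) but not without it, except that YOL163W was called without the 30 min library of course 3, where it had no read (2.16, adjusted p = 0.0067). YJL163C, YLR001C, YIL055C, YOR292C, YGR237C, YEL073C and YLR297W had changes of -0.07 to 0.88 between 5 and 180 min and were called in neither fit.

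The down group held ORFs with a fast dip and ORFs with a slow decline. YGR079W, with no described role, was at 108, 158 and 95.2 CPM at 0 min, at 30.0, 29.5 and 23.8 CPM after 5 min and at 8.08, 10.1 and 6.89 CPM at 30 min. It then returned to 52.8, 42.3 and 56 CPM at 120 min and lay at 29.3, 26.2 and 25.4 CPM at 240 min, so all libraries at 30 min lay below all others. It fell by 1.82 on the log2 scale between 5 and 30 min (standard error 0.23, adjusted p = 0.0002) and rose by 2.01 between 30 and 180 min (0.23, adjusted p = 0.0001, which was not called without course 3). The named genes most like it were BFR2, SSF1 and RSA4, all of ribosome assembly (r = 0.97, 0.96 and 0.96).

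YBL028C, whose tagged product lies in the nucleolus and which is predicted to act in ribosome biogenesis, was at 405, 139 and 152 CPM at 0 min, at 131, 31.2 and 23.5 CPM at 30 min, at 306, 66.0 and 48.7 CPM at 120 min and at 137, 28.6 and 37.5 CPM at 240 min. Course 1 was higher at every time. The change between 5 and 30 min was -1.40 (0.96, adjusted p = 0.52), and with the block -1.42 (adjusted p = 4.9e-07). The ribosome assembly genes LSG1 and RRP5 and the RNA polymerase I subunit gene RPA49 were most like it (r = 0.95, 0.94 and 0.94). YDL129W and YLR363W-A, the latter an 85-codon ORF whose tagged product lies in the nucleus, also passed their 240 min ratio at 30 min in every course. YDL129W was at 52.2, 42.5 and 43.3 CPM at 0 min and at 8.81, 5.45 and 0 CPM at 30 min, where the course 3 value comes from the library that stood apart. Its change between 5 and 30 min was -2.05 (0.94, adjusted p = 0.24), with the block -2.15 (adjusted p = 0.0076), and with the block but without that library -1.52 (adjusted p = 0.0033). YBR242W, a 5′-deoxynucleotidase, was at 188, 165 and 113 CPM at 0 min, at 60.1, 42.0 and 36.7 CPM at 30 min and at 43.8, 45.4 and 34.5 CPM at 240 min. It fell by 1.5 between 5 and 30 min (0.20, adjusted p = 0.00028, and 0.069 without course 2), and ILV1, LEU9 and the sterol esterase gene YEH1 were most like it (r = 0.93, 0.93 and 0.93).

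In 5 down members, YGR266W, YBL086C, YDL086W, YHR033W and YHR050W-A, the level lay above both ends at some time from 5 to 60 min in every course. YBL086C, whose tagged product lies at the cell periphery, was at 38.1, 24.9 and 23.8 CPM at 0 min, at 72.6, 66.4 and 79.2 CPM at 5 min and at 9.32, 8.20 and 6.04 CPM at 240 min. The 5 min level was thus far above 0 min in all courses. It fell by 2.75 between 5 and 180 min (standard error 0.28, adjusted p = 2.3e-05). YGR266W, a protein of the mitochondrial outer membrane and the plasma membrane, was at 64, 70.1 and 65.2 CPM at 0 min, at 73.3, 77.6 and 91.9 CPM at 5 min and at 10.0, 18.7 and 14.8 CPM at 180 min, and fell by 2.53 (0.32, adjusted p = 0.00012). Between 30 and 180 min it fell by 2.16 (0.32, adjusted p = 0.00064), which was not called without course 2 (0.066) or course 3 (0.075).

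YDL086W, a putative carboxymethylenebutenolidase detected in mitochondria, was at 138, 167 and 177 CPM at 0 min, at 148, 187 and 194 CPM at 5 min and at 32.1, 81.7 and 45.8 CPM at 180 min, and fell by 1.78 (0.40, adjusted p = 0.010). CYT1 and QCR2, subunits of the respiratory cytochrome bc1 complex, and CIR2, a flavoprotein dehydrogenase gene of mitochondria, were most like it (r = 0.98, 0.97 and 0.97). YHR050W-A, an ORF of 56 codons, was at 72.2, 84.1 and 62.3 CPM at 0 min, at 81.1, 102 and 116 CPM at 5 min and at 26.4, 27.4 and 24.9 CPM at 240 min, and fell by 1.48 between 5 and 180 min (0.35, adjusted p = 0.013). PET9, the main mitochondrial ADP/ATP carrier gene, QCR2 and CYT1 were most like it (r = 0.95, 0.93 and 0.93), which was looked at after the values were seen. YHR033W, a paralogue of the glutamate kinase gene PRO1, stayed between 18.7 and 70.7 CPM to 180 min and was at 15.8, 12.2 and 15.7 CPM at 240 min. YGR035C, a target of the drug-resistance factors Yrm1 and Yrr1, had a change of -1.94 between 5 and 180 min (0.64, adjusted p = 0.077, called with the block at an adjusted p of 0.00023 and without the 30 min library of course 3 at 0.036). YOR338W was at 16.9, 23.0 and 10.9 CPM at 0 min and at 4.01, 0.52 and 1.77 CPM at 5 min, and stayed at most at 6.87 CPM afterwards. Without course 2, the falls between 5 and 180 min of YBR242W, YDL086W and YHR050W-A were not called, and without course 3 those of YDL086W and YHR050W-A were not. With the block all 3 were called.

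The lists of named genes place these courses. Of 15 hypoxic genes such as DAN1, ANB1 and HEM13, 14 rose between 5 and 180 min and 6 between 5 and 30 min. With the block 14 rose and 1 fell between 5 and 180 min, and 7 rose and 1 fell between 5 and 30 min. Of 15 aerobic genes such as CYC1, COX4 and QCR2, 8 fell between 5 and 180 min, or 10 with the block. Between 5 and 30 min 3 aerobic genes fell, and with the block 7 fell and 1 rose. Of 15 stress-induced genes such as HSP12, CTT1 and TPS1, 4 rose between 5 and 30 min and 2 fell between 30 and 180 min, or 7 and 9 with the block. Between 5 and 180 min 1 stress-induced gene rose, and with the block 5 rose and 2 fell. Of 15 ribosome biogenesis genes, 13 fell between 5 and 30 min and 6 rose between 30 and 180 min, or 13 and 9 with the block. The shares of all genes called in these comparisons are those given above.

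Within 30 kb of a chromosome end lay 13 of the 56 up members (23.2%), none of the 12 down members, and 114 of all 732 unnamed ORFs (15.6%). A gene on the other strand started within 1000 bases upstream of 18 up members (32.1%) and 7 down members (58.3%), against 42.6% of the unnamed ORFs, and within 500 bases of 8 and 4. Of the 11 such neighbours of up members that were tested, 8 had a positive log2 change between 5 and 180 min, the direction of the group. Calls of a rise numbered 3, against 2.89% of all genes. They were RTS3 beside YGR161W-C (2.06 on the log2 scale), MUK1 beside YPL071C (1.55) and INO2 beside YDR124W (1.54). The members themselves had 0.45, 1.11 and 1.18 and were not called, though YDR124W was with the block (1.45, adjusted p = 0.04). Of the 7 neighbours of down members, 4 had a negative log2 change, the direction of the group. Among them was PAC10 (-0.47), whose member YGR079W itself had 0.19. Neither edgeR, with or without the block, nor DESeq2 called any of the 7 (2 had an unadjusted p under 0.05 without the block). Reads of overlapping transcripts from such pairs could not be told apart if the counting ignored the strand. Overlap with ORFs annotated as dubious was not assessed here.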

How the data were processed

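The deposited values are counts of reads per feature, which the authors made by mapping with TopHat2 to build R64 and counting with HTSeq (versions and strand setting not given in the sources used here). Each of 24 libraries (8 times, 3 courses numbered by the labels) has 1 file of 7140 features. Lines for reads outside features stand in the files of courses 2 and 3 (3.81% to 5.60% of counted reads) and stayed out of totals and tests. CPM used total counts. Positions, names and annotation came from the RefSeq R64 genome, and no gene-level sequence tables were used. An upstream sequence is withheld and not reported here. Members, gene lists, motifs and tests were chosen with earlier results of these data known.

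edgeR 4.0.16 was run in R 4.3.3 on the 18 libraries at 5 to 180 min with TMM factors, the default filter on low counts (6223 genes kept) and time as a factor, and p-values were adjusted by Benjamini-Hochberg over all genes kept. Residuals of libraries of the same course correlated in every pair (0.83 to 0.92, 0.62 to 0.73 and 0.55 to 0.74 in courses 1 to 3), so course numbers pair the libraries, and the fit with course as a block is given beside the calls it adds. The labels do not say whether courses are separate cultures, so p-values measure the spread between these libraries. The biological coefficient of variation was 0.592 without and 0.182 with the block. The test was checked on simulated counts of independent libraries without a course effect. That setting differs from these data, so the check does not cover the spread between courses. Other scalings, no filter, no fold minimum, DESeq2 1.42.0, all 24 libraries and leaving out courses or the 30 min library of course 3 were tried. ORFs could be named if among the 15 most changed up members or the 12 down members, those called, those nearest the limits, those overlapping or sharing a start region, those beyond both ends at 5 to 60 min and those with an annotated product, with the 3 most similar of the named genes for the 6 and 4 most abundant.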

Additional observations from a re-analysis of the deposited data

Results flagged for a closer look

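Alignments that map to more than 1 place stand in the files of courses 2 and 3 as their own line, outside the counts used above, and those of course 1 do not give it. Per 100 counted reads they numbered 63.0 and 63.3 at 0 min in courses 2 and 3. In both courses they were above this from 30 min on, at 104 and 114 at 30 min, 122 and 108 at 60 min, 96.1 and 87.5 at 120 min, 87.4 and 91.2 at 180 min, and 104 and 90.3 at 240 min. Which features these alignments belong to is not in the files, and the part of Ty elements in them was not tested.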

How the results depend on the processing

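Of 42 calls of members in the 3 comparisons of times, 41 were the same under every alternative that left out no library, and none reversed under any alternative. Leaving out course 1, 2 or 3 lost 0, 31 and 24 of them. The rule gave 32 members at 3-fold and 116 at 1.5-fold, and 81 to 94 when a course was left out. Divergent neighbours numbered 12 within 500 bases, against 25 within 1000.

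With the replicate block, members called numbered 45 over 5 to 180 min, 36 for 180 against 5 min, 20 for 30 against 5 min and 17 for 180 against 30 min, and DESeq2 called 32 for 180 against 5 min. Over all genes the block called 1202, 584, 624 and 550, and no fold minimum 539 for 180 against 5 min and 549 for 180 against 30 min. Leaving out a course gave 3 to 44, 6 to 36, 1 to 23 and 3 to 18 members, and 40 to 1249, 90 to 593, 38 to 650 and 55 to 557 genes, in that order. With the block and without course 1, 2 or 3 these were 44, 38 and 43, 37, 30 and 35, 24, 20 and 20, and 19, 14 and 15 members, and 1289, 1045 and 1142, 606, 491 and 606, 669, 583 and 585, and 562, 630 and 449 genes. The block without the 30 min library of course 3 gave 48, 38, 20 and 17 members and 1180, 600, 563 and 504 genes, chosen after seeing the data, as were the blocked fits without a course.

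Sequence shared between copies limits the Ty ORFs, YCR102C, YLR460C, YOR389W and YPL277C, and 8 members had no read at 30 min in course 3. The biological coefficient of variation was 0.592 without and 0.182 with the block, and the cause of the course differences was not tested.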

Other observations

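The stretch before YLR177W printed above also held a perfect palindrome of 42 bases that starts at position -222, just before the first STRE: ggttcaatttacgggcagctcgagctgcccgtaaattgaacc. Of 6001 stretches of 250 bases before a start codon, 2 held a palindrome that long. This was noticed after the sequence was seen.

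YOR389W and YPL277C, which are both annotated as regulated by copper and have repeated 50-base windows (43.0% and 37.9%), are set side by side. YOR389W was at 10.8, 7.10 and 10.7 CPM at 5 min and at 37.3, 20.8 and 27.8 CPM at 180 min, and YPL277C at 9.79, 7.8 and 10.7 CPM and at 11, 8.42 and 8.60 CPM. The log2 changes were 1.52 (standard error 0.30) and -0.07 (0.42), and the difference between the ORFs was not tested.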
